A study of Oryza sativa with 12 samples.

Results

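The RNA levels of 6 genes of the CLAVATA and WOX pathway were followed through inflorescence meristems of mutant and wild-type rice: the receptor kinase gene FON1 (LOC4342080), the CLE peptide gene FOS1 (LOC4329179) and the homeobox genes WOX4 (LOC4337218), QHB (LOC4324824), OsWOX6 (LOC4332705) and OsWOX7 (LOC4326320). They were chosen by gene symbol or synonym, and they are 6 of the 15140 genes with a probe on the array. Each of the 6 genes had 1 probe among the 54922 probes measured. Plants of 4 genotypes were compared, with 3 arrays each: those with the single mutation fon2-3, those with the single mutation asp1-10, those with both fon2-3 and asp1-fe, called the double mutant, and the wild type (WT). The single and the double mutant carried different asp1 alleles, so that the effect of adding an asp1 mutation to fon2-3 and a difference between the alleles cannot be told apart. Young inflorescence meristems were dissected from pot-grown outdoor plants together with a few bracts, so that RNA of the bracts was measured as well. The labels do not say whether the 3 arrays of a genotype came from separate plants or pools, and the p-values reflect the spread among these arrays alone, which may be technical.

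In the CLAVATA pathway, known best from Arabidopsis, a small secreted CLE peptide is perceived by a leucine-rich repeat receptor kinase and limits the pool of stem cells at the shoot tip, while WUSCHEL-type homeobox (WOX) factors promote it. In rice, FON2 encodes the CLE peptide and FON1 the receptor that together limit the size of the floral meristem, and mutants of either gene form extra floral organs. FOS1 encodes a related CLE peptide that acts partly redundantly with FON2, and WOX4 promotes the maintenance of the shoot meristem. ASP1 encodes a transcriptional corepressor of the TOPLESS type. The comparisons asked whether loss of the peptide, of the corepressor or of both changed the RNA level of the other pathway genes. No probe carried the name FON2 or ASP1, and these genes were not analysed here, so the genotypes could not be checked through the mutated genes.

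All values below are log2 signals, and a difference of 1 stands for a 2-fold change. Array medians lay between 5.51 and 5.60, and the correlation between pairs of arrays over all probes lay between 0.962 and 0.986. One array went against its label in that it resembled another genotype more: replicate 3 of asp1-10 had a mean correlation of 0.975 with the other asp1-10 arrays and of 0.983 with the fon2-3 arrays. For the 3 fon2-3 arrays the mean correlation with another genotype was also slightly higher than with their own, at most 0.984 against 0.983. The differences of the 6 genes between asp1-10 and WT are therefore given with and without replicate 3, as are some other results that involve asp1-10. Where no value without it is given, replicate 3 was included. The 6 measured genes listed as markers of the inflorescence meristem, FON1 included, had means above the median of all values in every genotype. Genes listed for other tissues lay on both sides of it. Of 8 floral organ genes 5 lay below it in every genotype, and of 6 lateral organ genes 1 lay below it in each mutant and 2 in WT. As many values lie below a median as above it, so these counts are a description and not a test of the tissue.

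The median of all values was 5.55, and it divided the 6 genes. FOS1, QHB, OsWOX6 and OsWOX7 lay below it on all 12 arrays, FON1 lay above it on all 12, and WOX4 lay above it on 11. The exception for WOX4 was replicate 3 of fon2-3, where it read 5.55 and fell just short of the median. As a description of where each probe stood in its array, the share of probes with a lower signal was 50.7 to 78.8% for FON1 and 50.3 to 58.8% for WOX4. That share was 15.4 to 32.7% for OsWOX7, 17.7 to 27.3% for QHB, 12.3 to 23.8% for FOS1 and 2.98 to 8.55% for OsWOX6. No detection call was used, so whether the 4 dim probes measured RNA or background was not tested.

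**Figure D1:**
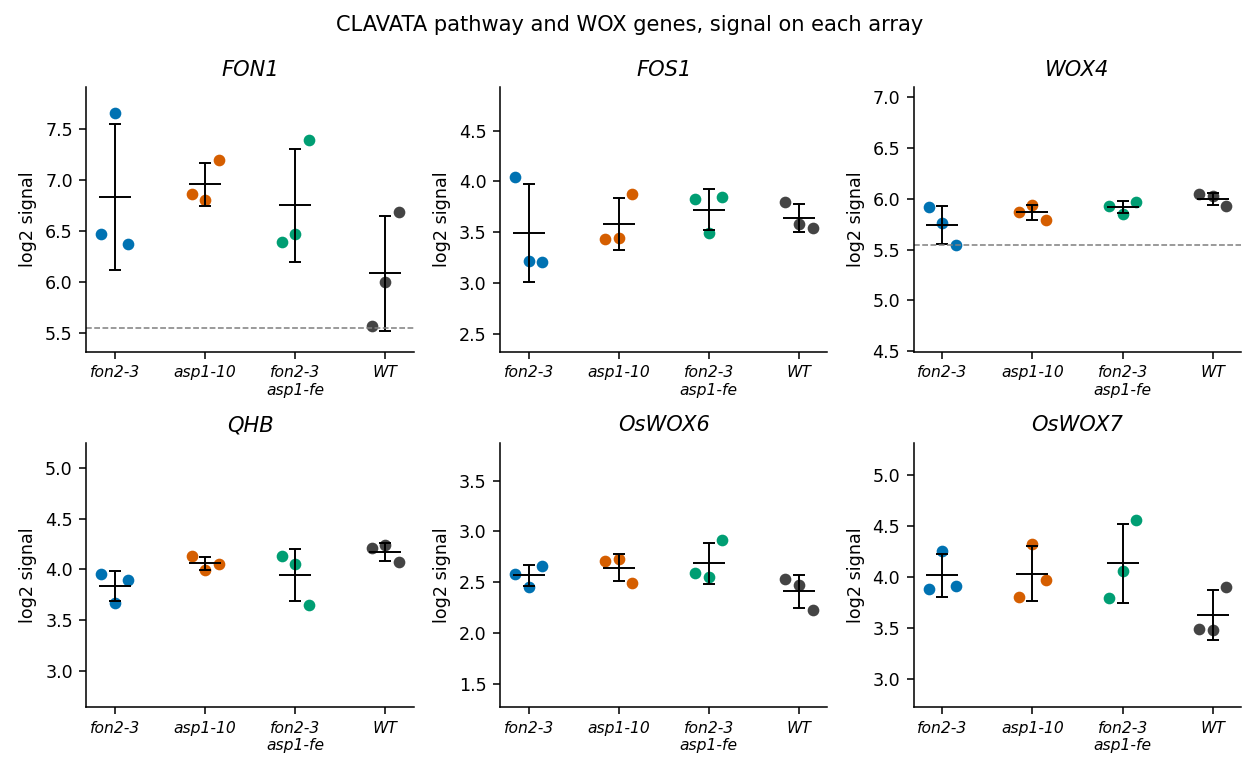
Log2 signal of the 6 genes on each of the 12 arrays, with 1 panel per gene, 1 point per array, and a bar at the mean ± SD of 3 arrays, in the order fon2-3, asp1-10, fon2-3 asp1-fe and WT. Every panel spans the same number of log2 units, and the dashed line in the FON1 and WOX4 panels marks the median of all values, 5.55, which lies above the other panels; WOX4 stays within 5.55 to 6.04, while FON1 runs from 5.57 to 7.66.

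FON1, the receptor kinase gene, had the highest mean in asp1-10 and the lowest in WT, and no difference from WT passed the test. Its signal was 6.47, 7.66 and 6.37 on the fon2-3 arrays, 6.86, 6.81 and 7.20 on the asp1-10 arrays, 6.39, 6.46 and 7.39 on the double-mutant arrays, and 5.57, 6.0 and 6.69 on the WT arrays. The 3 asp1-10 arrays lay above all 3 WT arrays, whereas the arrays of fon2-3 and of the double mutant overlapped with those of WT. Within WT alone the arrays differed by more than 1 log2 unit, and within fon2-3 a single array, replicate 2, stood well above the others. The means were 6.83 ± 0.72 in fon2-3, 6.96 ± 0.21 in asp1-10, 6.75 ± 0.56 in the double mutant and 6.08 ± 0.56 in WT (SD, n = 3 each).

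For FON1 these means gave 0.75 log2 units (1.68-fold) above WT in fon2-3 (95% interval -0.10 to 1.59; limma, adjusted p = 0.272), 0.87 (1.83-fold) in asp1-10 (0.03 to 1.72; adjusted p = 0.255) and 0.67 (1.59-fold) in the double mutant (-0.18 to 1.51; adjusted p = 0.356). The intervals therefore take in both no difference, or close to it, and a rise of about 1.5 log2 units or more. Single arrays moved the values of fon2-3 and of the double mutant by over 1.5 times. Without replicate 2 of fon2-3 the difference of fon2-3 from WT was 0.33, without replicate 3 of the double mutant its difference was 0.34, and without replicate 1 of WT the 3 differences were 0.49, 0.61 and 0.41 in fon2-3, asp1-10 and the double mutant. Without replicate 3 of WT they were larger, at 1.05, 1.17 and 0.97 in the same order. The FON1 difference of asp1-10 was 0.75 (adjusted p = 0.50) without replicate 3 of asp1-10, the array that resembled fon2-3.

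FOS1, the CLE peptide gene listed in the gene table as CLE202, did not separate the genotypes. It read 4.05, 3.22 and 3.20 in fon2-3, 3.43, 3.44 and 3.87 in asp1-10, 3.83, 3.49 and 3.84 in the double mutant, and 3.80, 3.58 and 3.54 in WT. Every mutant overlapped with WT, and in fon2-3 the arrays fell on both sides of all WT arrays. The differences from WT were -0.15 in fon2-3 (95% interval -0.64 to 0.34; limma, adjusted p = 0.729), -0.06 in asp1-10 (-0.55 to 0.43; adjusted p = 0.926) and 0.08 in the double mutant (-0.41 to 0.57; adjusted p = 0.877). For FOS1 these intervals reached down to -0.64 and up to 0.57. With single arrays left out, the FOS1 value ran from -0.43 (without replicate 1 of fon2-3) to -0.008 (without its replicate 3) in fon2-3, and from 0.02 (without replicate 3 of the double mutant) to 0.20 (without its replicate 2) in the double mutant. The FOS1 value for asp1-10 was -0.20 without replicate 3 of asp1-10.

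WOX4, which promotes meristem maintenance in rice, was the most even of the 6 genes across arrays. It read 5.92, 5.76 and 5.55 in fon2-3, 5.87, 5.94 and 5.79 in asp1-10, 5.93, 5.85 and 5.96 in the double mutant, and 6.04, 6.02 and 5.93 in WT. The 3 fon2-3 arrays all lay below the 3 WT arrays, with 5.92 and 5.93 as the nearest pair, and the other mutants overlapped with WT. The difference from WT was -0.26 in fon2-3 (95% interval -0.50 to -0.01; limma, adjusted p = 0.199), -0.13 in asp1-10 (-0.38 to 0.12; adjusted p = 0.596) and -0.08 in the double mutant (-0.33 to 0.16; adjusted p = 0.730). None passed the threshold. Without replicate 3 of fon2-3 the WOX4 value for fon2-3 was -0.16, and without replicate 2 of the double mutant that of the double mutant was -0.05. The WOX4 value for asp1-10 was -0.09 without replicate 3 of asp1-10.

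QHB, known from the quiescent centre of the root and listed in the gene table as OsWOX9, had lower means in every mutant than in WT, without passing the test. It read 3.95, 3.67 and 3.89 in fon2-3, 4.13, 4.0 and 4.05 in asp1-10, 4.13, 4.05 and 3.65 in the double mutant, and 4.21, 4.24 and 4.07 in WT. The fon2-3 arrays did not overlap with those of WT, whereas those of asp1-10 and of the double mutant did. The differences were -0.33 in fon2-3 (95% interval -0.64 to -0.03; limma, adjusted p = 0.176), -0.11 in asp1-10 (-0.42 to 0.19; adjusted p = 0.734) and -0.23 in the double mutant (-0.53 to 0.08; adjusted p = 0.385). In the double mutant the QHB difference rested on 1 array: without replicate 3 it was -0.08. The QHB value for asp1-10 was -0.11 without replicate 3 of asp1-10.

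OsWOX6, a WOX gene linked to shoot gravitropism and tiller angle, was the dimmest of the 6 probes. It read 2.58, 2.46 and 2.66 in fon2-3, 2.71, 2.73 and 2.49 in asp1-10, 2.59, 2.55 and 2.92 in the double mutant, and 2.53, 2.47 and 2.22 in WT. In the double mutant all arrays lay above all WT arrays, with 2.55 and 2.53 as the nearest pair, and the other mutants overlapped with WT. The differences were 0.16 in fon2-3, 0.23 in asp1-10 and 0.28 in the double mutant (95% interval for the last -0.02 to 0.58), with limma adjusted p-values of 0.523, 0.403 and 0.271 in that order. The OsWOX6 difference of the double mutant was 0.16 without its replicate 3. Without replicate 3 of WT the differences were 0.06 in fon2-3, 0.14 in asp1-10 and 0.18 in the double mutant, and without replicate 3 of asp1-10 that of asp1-10 was 0.31.

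OsWOX7, another WOX gene, was above WT in mean in each mutant, and each mutant overlapped with WT. It read 3.88, 4.26 and 3.91 in fon2-3, 3.80, 4.33 and 3.97 in asp1-10, 3.79, 4.05 and 4.56 in the double mutant, and 3.49, 3.48 and 3.90 in WT. Replicate 3 of WT lay among the mutant arrays, and the other WT arrays lay below all mutant arrays. The differences were 0.39 in fon2-3 (95% interval -0.08 to 0.86; limma, adjusted p = 0.304), 0.41 in asp1-10 (-0.06 to 0.88; adjusted p = 0.344) and 0.51 in the double mutant (0.04 to 0.98; adjusted p = 0.198). The OsWOX7 difference of the double mutant was 0.30 without its replicate 3. That of asp1-10 was 0.26 without its replicate 2 and 0.44 without its replicate 3.

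**Figure D2:**
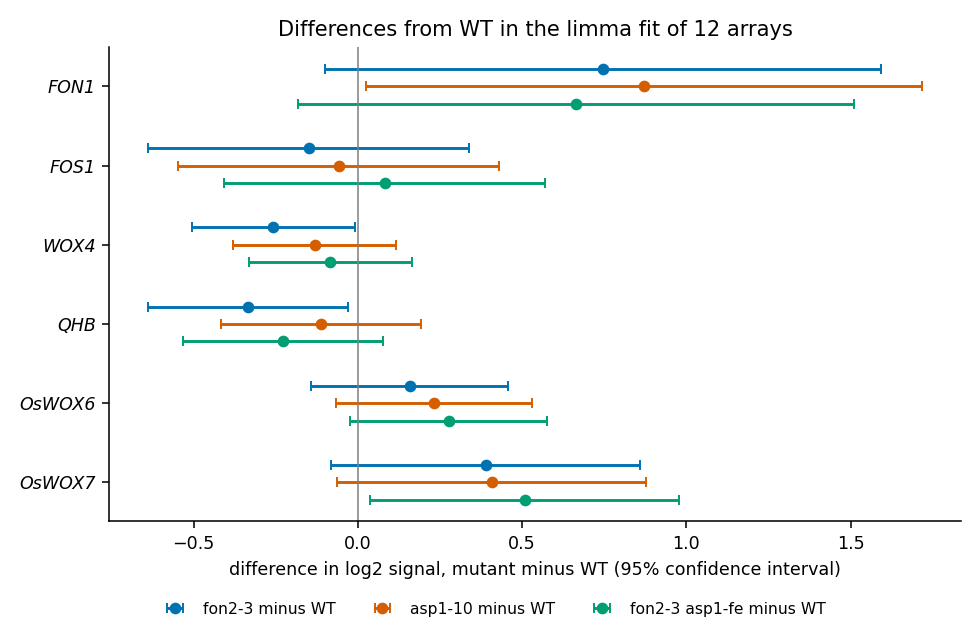
Log2 difference from WT for each of the 6 genes in fon2-3, asp1-10 and fon2-3 asp1-fe, with the 95% interval of the fit as bars and a line at 0. The FON1 intervals are the widest and reach 1.72, those of WOX4 are the narrowest, and no difference passed an adjusted p of 0.05.

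Read against the whole array, the 6 genes gave no more adjusted limma calls than the background. At an adjusted p below 0.05, 0 of 6 genes passed in fon2-3 against WT, where 5.22% of all probes passed, 0 of 6 in asp1-10, where 2.11% passed, and 0 of 6 in the double mutant, where 4.29% passed. With limma's unadjusted p below 0.05, 2 of 6 genes passed in fon2-3 (QHB and WOX4), 1 in asp1-10 (FON1) and 1 in the double mutant (OsWOX7), against 23.2%, 18.5% and 21.5% of all probes. Arrays of mutant and WT did not overlap for 2 genes in fon2-3, 1 in asp1-10 and 1 in the double mutant, against 29.2%, 24.6% and 28.4% of all probes. These counts are near the background shares. The 3 comparisons share the WT arrays, so that a like sign in all of them is not 3 separate observations. The median difference of the 6 genes was 0.00 in fon2-3, 0.09 in asp1-10 and 0.18 in the double mutant, and the median over all probes lay between -0.01 and 0.00.

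Between the mutants, too, none of the 6 genes was called. Between the double mutant and fon2-3 the differences ran from -0.08 (FON1) to 0.23 (FOS1), with 0 of 6 genes called by limma and 0.0091% of all probes called. Between the double mutant and asp1-10 they ran from -0.21 (FON1) to 0.14 (FOS1), with 0 of 6 genes and 0.0146% of probes called. Between asp1-10 and fon2-3 they ran from 0.02 (OsWOX7) to 0.22 (QHB), with 0 of 6 genes and 0.0109% of probes called. At an unadjusted p below 0.05, 0 of 6 genes passed in each, against 5.4%, 7.79% and 9.16% of probes. For FON1 the interval of the difference between the double mutant and fon2-3 was -0.93 to 0.76, which leaves room for a change of either sign close to the size of its difference from WT. With single arrays left out, the differences between mutants ran from -0.53 to 0.54 for FON1, from -0.054 to 0.51 for FOS1 and from -0.21 to 0.29 for the 4 WOX genes. Without replicate 3 of asp1-10, 100 probes instead of 8 were called between the double mutant and asp1-10, and 300 instead of 6 between asp1-10 and fon2-3, with 0 of the 6 genes among them in either. The FON1 difference was then -0.08 between the double mutant and asp1-10 and 0.003 between asp1-10 and fon2-3. When the 4 genotypes were put in order for each gene, all neighbours had overlapping arrays.

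Whether the double mutant departed from the sum of the single mutants was tested as an interaction, which includes the change of asp1 allele. No gene of the 6 passed, and 0.0127% of all probes did. For FON1 the interaction was -0.95 (95% interval -2.15 to 0.24; limma, adjusted p = 0.483), since all 3 mutants stood at a similar distance from WT. For WOX4 it was 0.30 (-0.05 to 0.65; adjusted p = 0.448), and for the other 4 genes the adjusted p lay between 0.669 and 0.846. The FON1 interaction was -0.54 without replicate 2 of fon2-3 and -1.28 without replicate 3 of the double mutant. Without replicate 3 of asp1-10 it was -0.83 for FON1 and 0.27 for WOX4, with 0 of 6 genes called. At an unadjusted p below 0.05 the count was 0 of 6 genes and 13% of probes.

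With the 3 mutant lines averaged, FON1, OsWOX6 and OsWOX7 lay above WT and QHB and WOX4 below it, each with all 9 mutant arrays on the same side of the WT mean. How often this was so over all probes was not counted, so these array counts are a description only. The difference was 0.76 for FON1 (95% interval 0.07 to 1.45; limma, adjusted p = 0.156) and 0.44 for OsWOX7 (0.05 to 0.82; adjusted p = 0.145), with 9 of 9 mutant arrays above the WT mean for each. It was 0.22 for OsWOX6 (adjusted p = 0.240; 9 of 9 above), -0.22 for QHB (adjusted p = 0.244; 0 of 9 above) and -0.16 for WOX4 (adjusted p = 0.320; 0 of 9 above). FOS1 was the exception, at -0.04 with 4 of 9 arrays above the WT mean (adjusted p = 0.914). None of the 6 was called, against 9.57% of all probes, and 2 of 6, FON1 and OsWOX7, had an unadjusted p below 0.05, against 25.5%. The FON1 difference was 0.50 without replicate 1 of WT, 1.06 without replicate 3 of WT and 0.72 without replicate 3 of asp1-10. The OsWOX6 difference was 0.13 without replicate 3 of WT and 0.25 without replicate 3 of asp1-10.

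An exact two-sided permutation test of 9 mutant against 3 WT arrays, unadjusted, gave p = 0.0455 for FON1, 0.0364 for WOX4, 0.0273 for QHB, 0.0364 for OsWOX7, 0.0545 for OsWOX6 and 0.773 for FOS1. The smallest p it can give is 0.00909, and 23.4% of all probes had a p below 0.05 in the same test. FON1, WOX4, QHB and OsWOX7 were below 0.05, a larger share of the 6 genes than of all probes. Whether the shares differ was not tested, and the genes were measured on the same arrays. A gene-by-gene exact test of 3 against 3 arrays cannot go below 0.1. No gene had its 9 mutant arrays wholly apart from the 3 WT arrays, which was so for 10.2% of all probes. The test for any difference among the 4 genotypes called 0 of 6 genes and 1.77% of probes (limma F-test, lowest adjusted p of the 6, 0.398), and at an unadjusted p below 0.05 it called 0 of 6 genes and 20.7% of probes.

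Replicate arrays scattered most for FON1 and least for WOX4. The SD within genotypes was 0.55 for FON1, larger than that of 94.8% of all probes and of 97.2% of the probes above the median level. It was 0.11 for WOX4, where only 9.15% of probes scattered less, and the median over all probes was 0.21. The SD was 0.30 for FOS1, 0.29 for OsWOX7, 0.16 for QHB and 0.16 for OsWOX6. The share of a gene's variance that lay between genotypes was 36.5% for FON1, 10.7% for FOS1, 52.3% for WOX4, 47.9% for QHB, 40.8% for OsWOX6 and 40.8% for OsWOX7, beside a median of 37.4% over all probes. A difference of given size was thus measured with a standard error of 0.39 for FON1 and of 0.11 for WOX4.

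**Figure D3:**
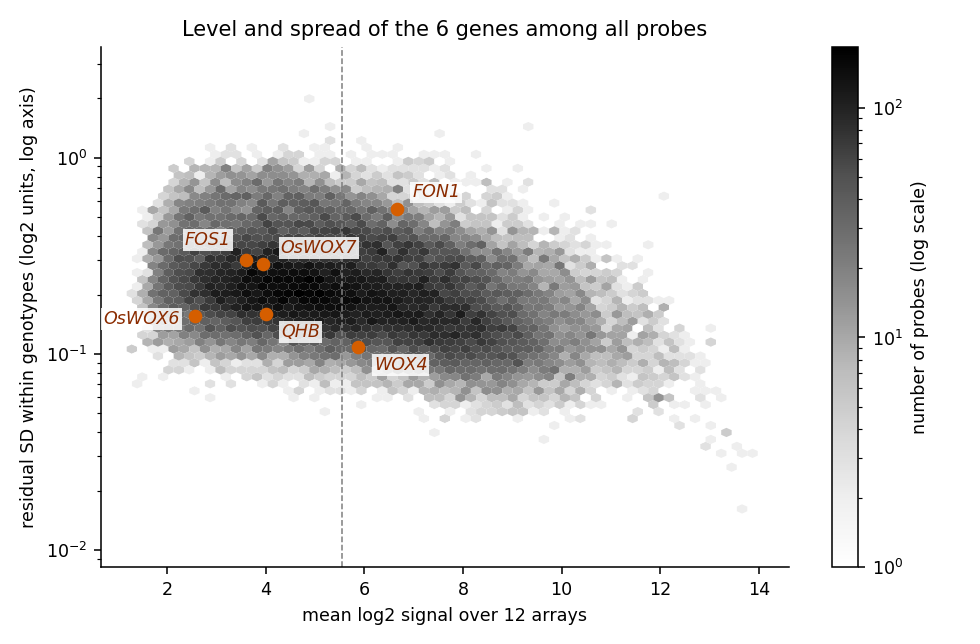
Mean log2 signal over 12 arrays (horizontal) against the SD between arrays of the same genotype (vertical) for all 54922 probes as shaded bins, with the 6 genes marked. FON1, at an SD of 0.55, lies near the top of the cloud for its level, and WOX4, at 0.11, near the bottom.

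On 3 arrays that were high or low for FON1 or for their genotype, other genes that mark meristem cells were high or low too, and on other arrays they were not. On replicate 1 of WT, where FON1 was lowest, all 6 meristem markers (FON1, the KNOX genes OSH1, OSH15 and OSH71, and the inflorescence genes APO2 and LAX1) had their lowest value of the 12 arrays. On replicate 2 of fon2-3, where FON1 was highest, all 6 had the highest value of that genotype, and on replicate 1 of the double mutant all 6 had the lowest of that genotype. FON1 is 1 of the 6, and the WT and fon2-3 arrays were picked by its value, so only the other markers were free to differ there. How many of all probes had their lowest or highest value on these arrays was not counted, so these marker counts are a description only. In asp1-10 no array was highest or lowest for more than 3 of the 6, and in fon2-3, where FON1 was lowest on replicate 3, 4 of the 6 were lowest on replicate 1. LAX1 varied most, reading 5.42, 9.33 and 4.98 in fon2-3, 8.09, 7.62 and 7.99 in asp1-10, 5.51, 5.66 and 6.35 in the double mutant, and 4.50, 7.13 and 7.18 in WT. In dissected tissue a smaller share of meristem cells and less RNA per meristem cell cannot be told apart.

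The 6 measured green-tissue genes, which bracts would carry, had a summed level given here as their mean. That mean lay between 4.45 and 4.68 in fon2-3, 4.35 and 5.03 in asp1-10, 4.41 and 4.78 in the double mutant, and 5.12 and 5.51 in WT, and its highest value was again on replicate 1 of WT. Of these 6 genes limma called 2 lower in fon2-3, 1 in asp1-10 and 2 in the double mutant. Over all probes 5.22%, 2.11% and 4.29% were called in either direction. PSAH, of photosystem I, fell by 1.19 in fon2-3, by 1.21 in asp1-10 and by 1.13 in the double mutant. OEE3, of photosystem II, fell by 1.90 in fon2-3 and fell by 1.86 in the double mutant. No gene of the list was called higher, though the mean of OsPSAG was 6.92 in asp1-10 against 6.53 in WT. CAB1R and CAB2R were dim, with WT means of 2.48 and 2.98. All 5 calls ended without replicate 1 of WT and also without replicate 3 of WT, and that of PSAH in asp1-10 also without replicate 3 of asp1-10. With any 1 array left out the OEE3 differences stayed between -2.03 and -1.65 and those of PSAH between -1.45 and -0.94. WT thus had the highest mean over the green-tissue genes and the lowest means of FON1 and the KNOX genes, and the part of tissue make-up in the FON1 differences was not tested. As a description chosen after these values were seen, FON1 minus the mean of the 3 KNOX genes was -0.82 ± 0.45 in fon2-3, -0.85 ± 0.21 in asp1-10, -1.20 ± 0.49 in the double mutant and -0.63 ± 0.34 in WT (SD, n = 3 each). The KNOX mean itself was higher in the mutants, at 7.66, 7.80 and 7.95 in that order against 6.72 in WT. The measure thus depends on the genes chosen as reference. The same measure for WOX4 lay between -2.29 and -1.40 on the 9 mutant arrays and between -1.03 and -0.21 on the WT arrays, as the KNOX signals were higher in the mutants and WOX4 was not.

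**Figure D4:**
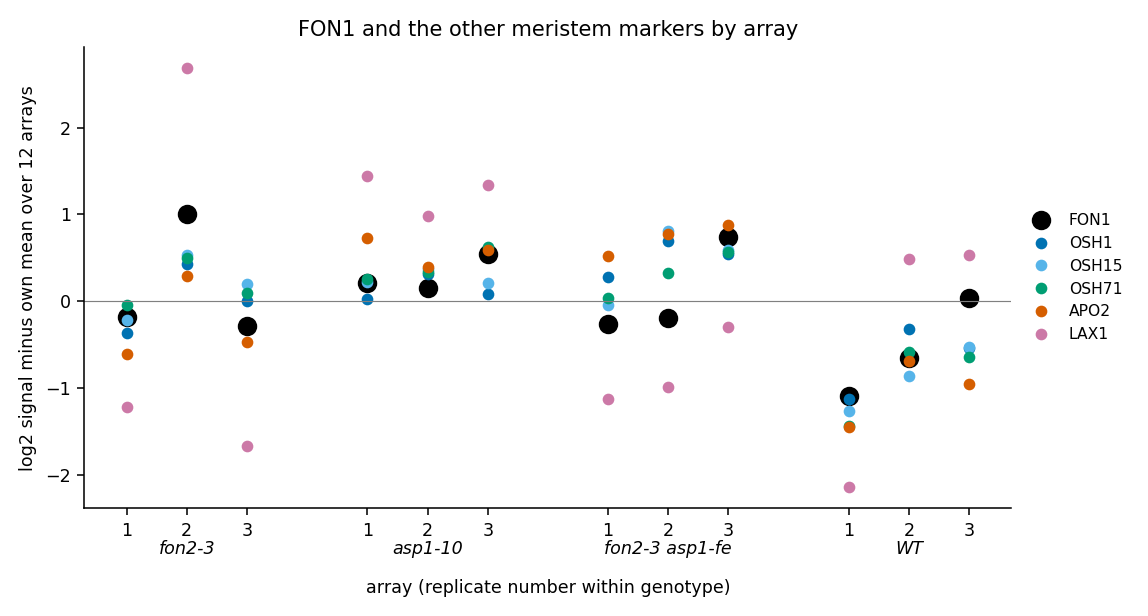
Log2 signal of 6 meristem markers on each of the 12 arrays, centred on each gene's mean over the arrays, with fon2-3, asp1-10 and fon2-3 asp1-fe arrays left of the WT arrays. All 6 markers have their lowest point on replicate 1 of WT, and replicate 2 of fon2-3 stands highest of its genotype for all 6.

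The named genes with the pattern most like that of FON1, by the root mean square difference of centred log2 values over the 12 arrays among 1722 named genes, were MSP1 (0.31), GATA15 (0.33) and OsPID (0.34), beside a median of 0.59. MSP1 encodes a leucine-rich repeat receptor kinase of early anther and ovule development, GATA15 a GATA-type zinc finger factor and OsPID a protein kinase related to Arabidopsis PINOID. For WOX4 the most alike were SAT3 (0.09), TFIIAy (0.10) and FDRMADS7 (0.10), beside a median of 0.25. WOX4 itself varied by 0.13 about its mean in the same measure, so that any gene with little variation came close to it.

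Around the 6 genes, the wider pathway was described by its corepressors, KNOX genes and cytokinin genes. Of the genes in the gene table, 1 of 2 CLE genes, the 1 receptor gene and 4 of 8 WOX genes had a probe, and these are the 6 genes described above. Of 3 TOPLESS-type corepressor genes 2 had a probe. Against WT, 1 of these 2 was called higher in asp1-10 and in the double mutant, and 0 in fon2-3. Over all probes 2.11%, 4.29% and 5.22% were called in that order, in either direction. The names ASPR1 and ASPR2 follow the gene table, and since other usage may assign them the other way round, the values below belong to the loci given. ASPR2 (LOC4327709), a relative of ASP1, read 8.39, 9.45 and 9.03 in fon2-3, 11.02, 10.84 and 10.68 in asp1-10, 10.88, 10.75 and 11.13 in the double mutant, and 8.74, 8.74 and 8.78 in WT. It was high in both genotypes with an asp1 allele and near WT in fon2-3 alone. It rose by 2.09 in asp1-10 (limma, adjusted p = 0.00698) and by 2.17 in the double mutant (adjusted p = 0.00466), and both calls held under every alternative run, replicate 3 of asp1-10 left out included. The other, ASPR1 (LOC4332285), read between 11.2 and 11.5 on all arrays and was not called.

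The class 1 KNOX genes, homeobox genes that keep meristem cells undifferentiated, had 3 of 6 members with a probe. Of these 3, 2 were called higher in fon2-3, 2 in asp1-10 and 3 in the double mutant, where 5.22%, 2.11% and 4.29% of all probes were called in either direction. Their median difference was 1.06, 1.15 and 1.20 beside 0.00, -0.01 and 0.00 over all probes. OSH71 rose by 1.07 in fon2-3, 1.3 in asp1-10 and 1.20 in the double mutant (limma, adjusted p = 0.0333, 0.0283 and 0.0284), and OSH15 rose by 1.06, 1.15 and 1.34 (adjusted p = 0.0407, 0.0436 and 0.0243) in the same order. OSH1 was 0.68 and 0.81 above WT in the single mutants without passing and rose by 1.17 in the double mutant (adjusted p = 0.0288). All 7 of these calls ended without replicate 1 of WT, the array on which the meristem markers were lowest. Over all probes that step gave 4 calls instead of 2866 in fon2-3. It gave 163 instead of 1157 in asp1-10 and 236 instead of 2358 in the double mutant. The OSH71 calls ended as well without replicate 3 of WT. The highest adjusted p with 1 array left out was 0.145, for OSH15 in fon2-3, and all 7 differences stayed at 0.80 or more. The asp1-10 calls also ended without replicate 3 of asp1-10, and in fits of only the groups compared 5 of the 7 calls ended.

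The list of cytokinin genes, type A response regulators and LOG enzymes that release active cytokinin, had 11 of 20 members with a probe. In fon2-3, 2 of the 11 were called higher and 1 lower, in asp1-10 none, and in the double mutant 1 was called higher, where 5.22%, 2.11% and 4.29% of all probes were called. Their median difference from WT was 0.48, 0.00 and 0.19 in that order, beside 0.00, -0.01 and 0.00 over all probes. OsRR1, a response regulator induced by cytokinin, read 7.89, 7.87 and 7.82 in fon2-3, 7.25, 7.17 and 7.60 in asp1-10, 7.44, 7.90 and 7.76 in the double mutant, and 6.59, 6.75 and 6.98 in WT. All mutant arrays lay above all WT arrays, and for 10.2% of all probes the mutant and WT arrays were wholly apart in either direction. OsRR1 rose by 1.09 in fon2-3 (limma, adjusted p = 0.0159) and by 0.93 in the double mutant (adjusted p = 0.0174). In asp1-10 the value was 0.57 (adjusted p = 0.0819), or 0.44 without its replicate 3. OsRR2 rose by 0.51 in fon2-3 (adjusted p = 0.0403) and LOGL3 fell by 1.14 in fon2-3 (adjusted p = 0.0493). The OsRR1 calls ended without replicate 1 of WT, and also without replicate 2 of the mutant concerned, while the differences stayed between 0.83 and 1.19 with any 1 array left out. The OsRR2 and LOGL3 calls were lost on leaving out 7 and 9 of the 12 arrays in turn, replicate 1 of WT among them, and under cyclic loess normalization.

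**Figure D5:**
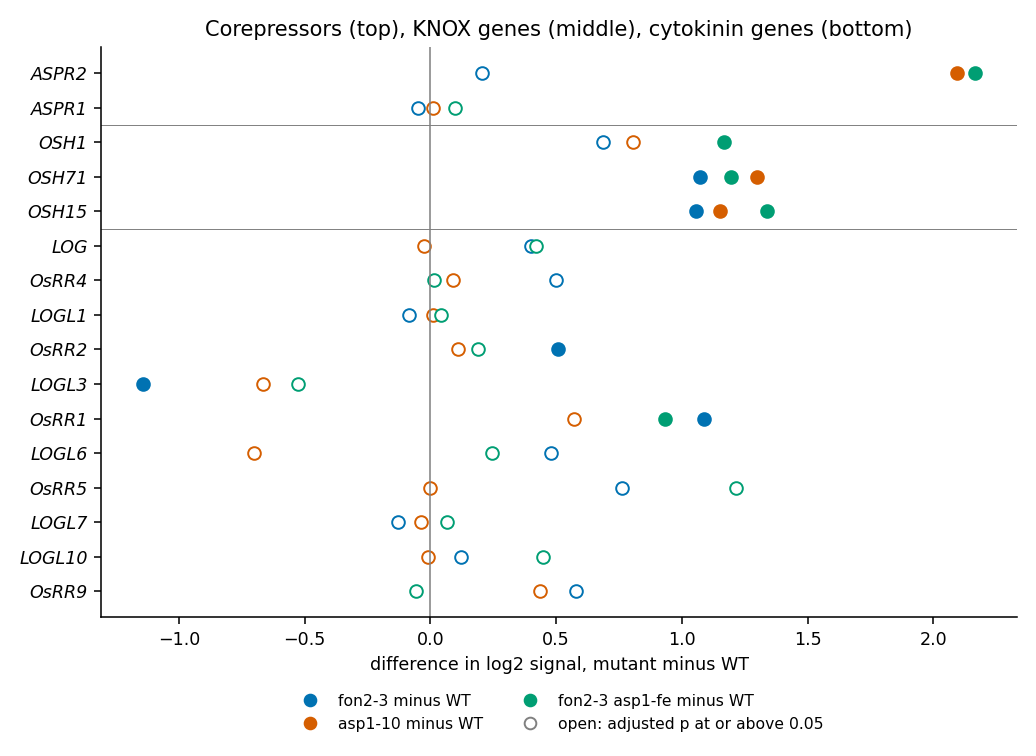
Log2 difference from WT for the corepressor, KNOX and cytokinin genes with a probe, in fon2-3, asp1-10 and fon2-3 asp1-fe, where open points did not pass an adjusted p of 0.05. ASPR2 stands at 2.09 and 2.17 in the asp1 genotypes and at 0.21 in fon2-3, and the KNOX genes lie to the right of 0 in all 3 comparisons.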

How the data were processed

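RNA of dissected rice inflorescence meristems was measured on 12 one-colour Affymetrix arrays, 3 for each of 4 genotypes, which were taken from the titles. The deposited values of 54922 probes were used as log2 signals, a unit taken from their range. Affymetrix Expression Console 1.3 was used by the authors, per the submitters' processing notes. How background was corrected and arrays were normalized and summarised, and to which base logs were taken, is not given in the sources used here. A probe table listed a gene for 16269 probes, with 1 gene for 15829, and 38653 probes had none. Positions are not given, since no genome build was stated.

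All 12 arrays were fitted together with limma 3.58.1 (R 4.3.3; lmFit and eBayes, no filter, constant prior). P-values were adjusted by Benjamini-Hochberg over all probes, with a threshold of 0.05, and intervals are 95% intervals of the fit. The script was tested on simulated data. Exact permutation tests used scipy 1.17.1 and all 220 splits of 9 and 3 arrays. All 6 genes are named whether called or not, and of the pathway lists each gene called. The patterns most alike are the 3 named genes with the smallest root mean square difference of centred values, for members whose highest genotype mean reached the median. A gene with several probes is given by its brightest. The genes and lists were chosen with earlier results of these data known. Replicate numbers did not pair the samples: deviations of same-numbered arrays correlated between -0.18 and 0.11, with 2 of 18 pairs over 0.1. The alternatives were cyclic loess, median centring, a replicate block, only the groups compared, array weights, a variance trend with a robust prior, leaving out dim probes, identical profiles counted once, a minimum log2 change of 1 and leaving out each array. Precision is limited by the 3 arrays of a genotype.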

Additional observations from a re-analysis of the deposited data

Results flagged for a closer look

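The WOX4 differences had opposite signs in the 2 backgrounds in which an asp1 allele was compared, and neither was called (limma, adjusted p = 0.596 and 0.941). All 3 asp1-10 arrays lay below the WT mean, with a difference of -0.13, while all 3 double-mutant arrays lay above the fon2-3 mean, with a difference of 0.17. The interaction between them was 0.304 log2 units, and the limma test of that difference did not pass (adjusted p = 0.448). The single and the double mutant carried different asp1 alleles.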

How the results depend on the processing

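None of the 6 genes was called in any of the 9 comparisons under any alternative run. Of their recomputed differences, 938 kept their sign and 26 changed it. Many of the 938 could not change. Leaving out an array of a genotype outside the comparison, or altering only the test, leaves the difference as it was. Of the 26, 3 did not come from leaving out an array: with array weights OsWOX6 was -0.0049 between the double mutant and asp1-10, and with cyclic loess OsWOX7 was -0.0042 between asp1-10 and fon2-3 and FOS1 was 0.0072 between the mean of the mutants and WT. With single arrays left out, FOS1 ran from -0.20 to 0.022 in asp1-10 against WT and from -0.13 to 0.038 for the mean of the mutants. Between the double mutant and fon2-3, FON1 ran from -0.40 to 0.33 and OsWOX7 from -0.094 to 0.29. Between the double mutant and asp1-10, QHB ran from -0.21 to 0.032, OsWOX6 from -0.072 to 0.11 and OsWOX7 from -0.11 to 0.27. Between asp1-10 and fon2-3, FON1 ran from -0.11 to 0.54, FOS1 from -0.054 to 0.37 and OsWOX7 from -0.13 to 0.14. Counts over all probes were far less stable: 2866 probes were called in fon2-3, 1157 in asp1-10 and 2358 in the double mutant against WT, and 1475, 508 and 1147 with the replicate block. With single arrays left out they ran from 1 (without replicate 2 of fon2-3) to 4554, from 163 (without replicate 1 of WT) to 1202, and from 18 (without replicate 2 of the double mutant) to 3998, and under the other settings from 1134 to 4718, from 2 (only the groups compared) to 2507 and from 989 to 4192. Without replicate 3 of asp1-10, 100 probes (8 in the fit of all arrays) were called between the double mutant and asp1-10 and 300 (6) between asp1-10 and fon2-3. The block changed no call of the 6 genes. The filter on dim probes left only FON1 and WOX4 of them, and no mean over probes was possible because each has 1 probe. The cause of these shifts was not tested.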

Other observations

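The floral organ and vascular lists add 2 descriptions. Of 8 floral organ genes none was called against WT in fon2-3, asp1-10 or the double mutant, with median differences of -0.10, -0.03 and -0.03. Over all probes 5.22%, 2.11% and 4.29% were called in these comparisons. The floral list takes in LOC4343851, matched through the name MADS2 and named FDRMADS7 above, beside LOC4325001 of the same name. Of 2 secondary wall genes, CESA4, a cellulose synthase of secondary walls, rose by 0.51 in fon2-3, by 0.61 in asp1-10 and by 0.71 in the double mutant (limma), calls that ended on leaving out 5, 5 and 2 of the 12 arrays in turn, replicate 3 of WT among them, while the differences stayed between 0.46 and 0.77. The fon2-3 and asp1-10 calls also ended with the replicate block and when only the groups compared were fitted. The fon2-3 call ended under cyclic loess as well, and each CESA4 call ended under the minimum log2 change of 1. Of 6 lateral organ genes, DL, a YABBY factor of carpels and leaf midribs, was the only one called against WT. It fell by 1.49 in asp1-10 (limma, adjusted p = 0.00805), a call that held with any 1 array left out and ended when only the groups compared were fitted. The fall was not seen in the double mutant, which carries the other asp1 allele: the mean was 10.20 there, 8.71 in asp1-10 and 10.19 in WT.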
